A study of Mus musculus with 3 samples.

Results

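The regions described here are ETV5 peaks of mouse alveolar type II (AT2) cells that lay at an end of a gene but far from any peak of histone H3 trimethylated at lysine 4 (H3K4me3). A member was an ETV5 peak on chromosomes 1 to 19 or X whose summit lay within 1 kb of either end of a RefSeq protein-coding gene, and whose nearest edge was more than 5 kb from every H3K4me3 peak. There were 1366 such peaks among 31149 ETV5 peaks on these chromosomes (4.39%, exact 95% interval 4.16 to 4.62), and 31165 in the whole list. AT2 cells, the surfactant-producing cells of the lung alveolus, came from C57BL/6 mice of 10 to 12 weeks, for all 3 samples of the series: 1 ETV5 library, 1 H3K4me3 library and 1 input library. No genetic change or treatment is named in the labels, which also do not say how many animals were pooled. The ETV5 list was made from 5715049 tags and the H3K4me3 list from 34907608 tags, each against an input library, per the file headers. With 1 library per antibody no value below has a replicate check, and intervals cover counting error only. The peak lists chose the members, so their strength and place are given as descriptions, with no test.

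ETV5 belongs to the PEA3 group of the ETS family of transcription factors, which bind DNA around a GGAA core and act downstream of FGF and ERK signalling. H3K4me3 is laid down at promoters from which genes are transcribed, and CpG-rich promoters carry it in many cell types. Promoters of developmental regulators are often CpG-rich as well and are kept silent by Polycomb proteins in cells that do not use them. Only ETV5 and H3K4me3 were measured here, and neither transcription nor Polycomb marks were.

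The sequences below are examples from the stronger members at gene starts and are not typical of the set, whose median fold was 5.46. They are the 250 bases before the start site at 8 members, those of highest fold among members whose summit lay within a RefSeq promoter window (250 bases before to 50 after a start site, GRCm38.p6, read 5′ to 3′ along the gene). Capitals mark the ETS core, GGAA or its reverse complement TTCC.
Ephb2, chr4:136836013-136836262, minus strand: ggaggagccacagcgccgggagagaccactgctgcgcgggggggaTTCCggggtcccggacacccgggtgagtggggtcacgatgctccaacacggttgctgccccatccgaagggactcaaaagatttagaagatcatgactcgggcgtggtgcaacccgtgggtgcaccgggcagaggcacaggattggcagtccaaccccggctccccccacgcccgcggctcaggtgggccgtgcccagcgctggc
Kifc1, chr17:33890634-33890883, minus strand: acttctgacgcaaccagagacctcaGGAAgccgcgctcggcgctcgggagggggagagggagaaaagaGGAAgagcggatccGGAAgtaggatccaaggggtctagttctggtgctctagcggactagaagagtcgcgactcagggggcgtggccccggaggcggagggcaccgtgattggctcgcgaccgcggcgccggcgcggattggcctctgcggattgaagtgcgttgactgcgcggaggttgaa
Crybg1, chr10:44148829-44149078, minus strand: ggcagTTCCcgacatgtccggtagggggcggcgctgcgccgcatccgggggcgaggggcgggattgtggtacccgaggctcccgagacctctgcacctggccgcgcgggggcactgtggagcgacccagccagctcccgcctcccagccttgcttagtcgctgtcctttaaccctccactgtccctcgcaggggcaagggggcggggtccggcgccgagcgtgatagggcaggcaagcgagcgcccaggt
Sh3bp5, chr14:31436101-31436350, minus strand: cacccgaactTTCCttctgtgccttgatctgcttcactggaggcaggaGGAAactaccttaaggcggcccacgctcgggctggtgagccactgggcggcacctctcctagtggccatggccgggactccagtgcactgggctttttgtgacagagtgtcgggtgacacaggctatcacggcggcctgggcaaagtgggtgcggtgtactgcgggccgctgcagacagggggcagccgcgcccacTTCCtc
Syn1, chrX:20920919-20921168, minus strand: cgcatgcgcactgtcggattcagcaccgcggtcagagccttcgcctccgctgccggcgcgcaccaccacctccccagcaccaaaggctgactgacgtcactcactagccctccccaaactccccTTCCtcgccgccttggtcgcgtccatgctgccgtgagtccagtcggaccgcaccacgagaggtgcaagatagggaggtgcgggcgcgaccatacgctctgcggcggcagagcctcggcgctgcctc
Syp, chrX:7638330-7638579, plus strand: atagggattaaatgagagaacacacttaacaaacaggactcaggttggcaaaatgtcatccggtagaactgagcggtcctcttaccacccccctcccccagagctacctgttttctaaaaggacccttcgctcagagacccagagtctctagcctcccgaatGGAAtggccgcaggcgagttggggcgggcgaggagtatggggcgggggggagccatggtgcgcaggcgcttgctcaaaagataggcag
Mybl2, chr2:163054385-163054634, plus strand: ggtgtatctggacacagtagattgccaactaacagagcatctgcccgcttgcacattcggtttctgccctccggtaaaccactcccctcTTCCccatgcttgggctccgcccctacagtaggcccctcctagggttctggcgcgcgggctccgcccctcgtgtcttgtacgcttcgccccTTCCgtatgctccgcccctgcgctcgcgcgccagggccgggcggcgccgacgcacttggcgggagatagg
Scgb1c1, chr7:140845315-140845564, plus strand: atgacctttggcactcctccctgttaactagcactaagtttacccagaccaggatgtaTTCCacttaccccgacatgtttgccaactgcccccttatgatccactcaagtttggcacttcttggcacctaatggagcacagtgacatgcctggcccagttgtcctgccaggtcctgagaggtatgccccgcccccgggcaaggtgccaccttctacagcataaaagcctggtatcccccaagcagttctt

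These promoters differed in fold, in CpG content and in the number of ETS cores. Ephb2, which encodes a receptor tyrosine kinase for ephrins, had a fold enrichment over input of 50.6, and its summit lay 115 bases before this start site, which is inside the annotated extent of the gene. Its 300-base window held 24 CpG, and the printed bases held 1 core. The CpG counts of the other promoters are also for their 300-base windows. Kifc1, a spindle kinesin, had fold 39.6 with 28 CpG in its window and 3 cores in its printed bases. Of the 8 it alone held the ETS motif CCGGAAGT. The shorter motif CCGGAA lay in the windows of Kifc1 and Ephb2 and in none of the others. Crybg1 (fold 33.3), Sh3bp5 (32.0) and the synapsin gene Syn1 (28.2) held 28, 22 and 33 CpG. Syp, which encodes the synaptic vesicle protein synaptophysin, had fold 13.6 with 18 CpG, and the cell cycle transcription factor gene Mybl2 had 13.3 with 26. Scgb1c1, a secretoglobin gene, stood at the other extreme of the set, with fold 12.9 and only 4 CpG.

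Most members were weak peaks. Their median fold was 5.46 (quartiles 4.66 and 6.68), their median pileup at the summit 10 fragments (8 and 12) and their median width 304 bp (226 and 442). A pileup of 10 fragments carries a Poisson interval of 4.80 to 18.4, so the order of members of middling strength is not resolved at this depth. Fold 10 or more was seen at 93 members (6.81%, 5.53 to 8.28), against 30.7% of all ETV5 peaks on these chromosomes. A −log10 q of 10 or more was seen at 209 members (15.3%), against 43.1% of all. The rule and these counts rest on the same ETV5 peaks, so the shares only describe the set.

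Peaks in other places were compared to show where the members stand. The 10539 ETV5 peaks at gene ends that overlapped H3K4me3 had a median fold of 12.4 (7.84 and 20.6), and 61.7% (60.8 to 62.7) reached fold 10. The 826 at gene ends that lay beside an H3K4me3 peak, outside it but no more than 5 kb away, had a median of 5.17, and 5.93% (4.42 to 7.77) reached fold 10. The 10254 far from both H3K4me3 and gene ends had a median of 5.32, and 8.05% (7.53 to 8.59) did. The members' interval for fold 10 overlapped those of both groups outside H3K4me3 and lay below that of the group inside it. The local input background was alike in these groups, with medians from 0.911 fragments at members to 1.10 at gene ends in H3K4me3.

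**Figure D1:**
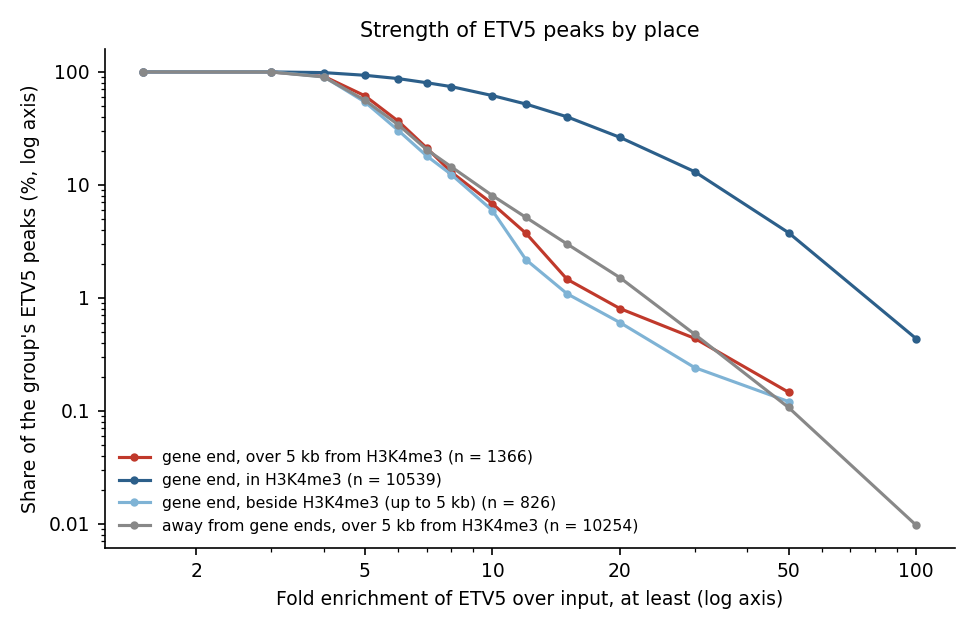
Share of ETV5 peaks in each of 4 groups (y, percent, log axis) whose fold enrichment over input reached the value on the x axis (log axis). The curve of the 1366 peaks at gene ends over 5 kb from H3K4me3 runs beside those of the other groups outside H3K4me3, and 6.81% of them reach fold 10, against 61.7% at gene ends in H3K4me3.

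A few members stood well above this. The highest fold was at the far end of Anpep, which encodes the membrane peptidase aminopeptidase N (chromosome 7, 79822069 to 79823040, fold 50.7, pileup 113, interval 93.1 to 136). Its summit lay 762 bp inside the gene and 10415 bp from the nearest H3K4me3 peak, and the other end of Anpep was itself inside an H3K4me3 peak. Ephb2 followed at its start (chromosome 4, 136835676 to 136836734, fold 50.6, pileup 81, 64.3 to 101), 211172 bp from H3K4me3 and in a gene without any such peak. Their fold differed less than their counting errors. Kifc1 had the highest pileup of all members (chromosome 17, 33890256 to 33891075, 117 fragments, 96.8 to 140), over a higher background.

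The other members among the 15 of highest fold ranged from 37.8 at Grin3a to 18.02 at Csrp1. Grin3a, an NMDA receptor subunit gene, had its peak 288 bp inside an end (chromosome 4, 49661643 to 49662555, pileup 64). Crybg1, Sh3bp5 and Syn1 had theirs just outside the gene start, at 219, 1 and 85 bp. Wnt10a, which encodes a Wnt ligand, had fold 25.5 and the brevican gene Bcan 24.0, the latter 513 bp beyond its far end. The GTPase gene Rab36 had 21.9, and Ptpn1, which encodes a tyrosine phosphatase of insulin signalling, had 20.1 at its far end. Cops7a, a COP9 signalosome subunit gene, had 19.5, Ankrd63 18.5 and Nacad 18.2. The 11 members of fold 20 or more are all among these names. Ankrd63 also had the widest member, 2245 bp, followed by the neuronal factor gene Neurod2 (1961 bp, fold 11.4) and the forkhead gene Foxd3 (1940 bp, fold 13.2).

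Members were found at both kinds of gene end, and mostly at starts. The direction of the gene was known for 1026 members, of which 675 lay nearest a start (65.8%, 62.8 to 68.7) and 351 nearest the far end. For the other 340 the promoter table gave no strand. At gene ends inside H3K4me3, 8263 of 8449 ETV5 peaks of known direction lay at a start (97.8%, 97.5 to 98.1). At gene ends beside H3K4me3, 364 of 646 did (56.3%, 52.4 to 60.2), a smaller share than among the members. Start members had a median fold of 5.55, against 5.07 at far ends. Fold 10 was reached by 59 start members (8.74%, 6.72 to 11.1) and by 15 at far ends (4.27%, 2.41 to 6.95), and these intervals overlapped slightly.

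The placement around the end differed as well. At starts, 288 of 675 summits (42.7%) lay within 250 bp of the gene boundary, and 505 (74.8%) lay on the gene side of it, with a median 225 bp into the gene. At far ends 80 of 351 (22.8%) lay within 250 bp, and 220 (62.7%) lay inside the gene. Only 26 of the far-end members had a listed start site of any gene within 1 kb. Of the 675 start members 625 did, and 55 had no listed start site of a protein-coding gene that near. A start here means the boundary of the gene.

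**Figure D2:**
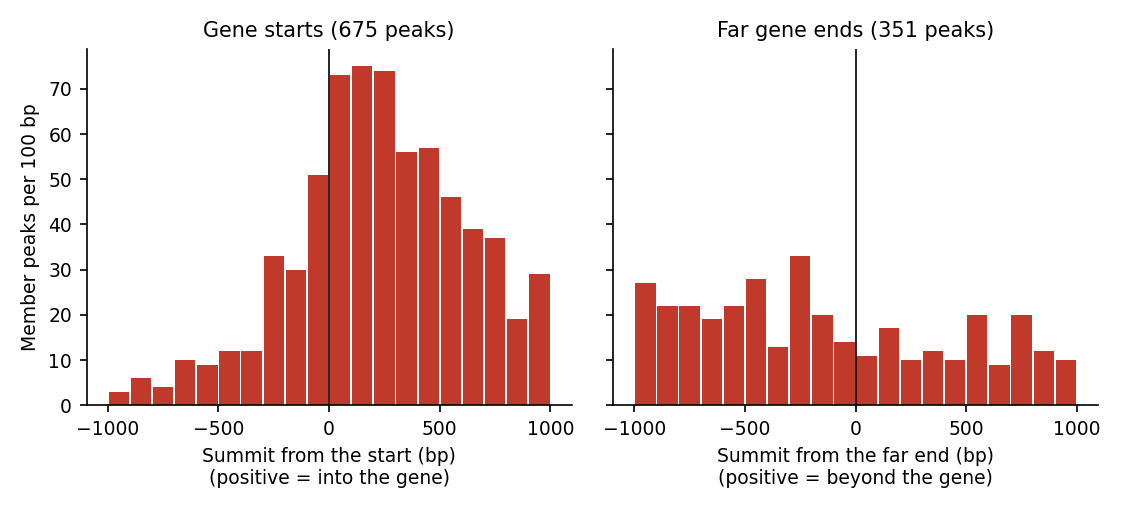
Number of member peaks (y) by the position of the summit in steps of 100 bp (x, bp) at gene starts (left, positive values into the gene) and at far ends (right, positive values beyond the gene). Summits at starts crowd just inside the boundary, up to 75 per step, and those at far ends are spread over the window, at 9 to 33 per step.

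H3K4me3 in the genes of far-end and start members was counted as well. At 197 of 351 far-end members (56.1%, 50.8 to 61.4) the start of the same gene lay within 1 kb of an H3K4me3 peak, as at Anpep and Ptpn1. Dnajb12, which encodes a chaperone of the endoplasmic reticulum, was another, with fold 14.6 at its far end and H3K4me3 at its start. Of the 675 start members, 18 (2.67%, 1.59 to 4.18) had H3K4me3 at the other end and 85 (12.6%) anywhere in the gene, and 590 lay at genes with none. Crybg1 and Csrp1 were among the 85, with H3K4me3 in the gene and ETV5 at an annotated start without it. Among all 21631 protein-coding genes, 11405 had H3K4me3 within 1 kb of an end. It lay that near to 9017 starts and to 932 far ends of known direction. The same shares at unmarked ends without ETV5 were not counted, so the contrast is not shown to be particular to members. Among members of unknown direction, Tmbim6, which encodes an inhibitor of cell death, had 3 member peaks within 1 kb of an end (highest fold 16.3) and H3K4me3 at the other.

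Distance to H3K4me3 differed between starts and far ends as well. The median was 26710 bp (quartiles 12370 and 72441), and 253 members (18.5%) lay between 5 and 10 kb from an H3K4me3 peak and 255 (18.7%) over 100 kb. Starts made up 44.6% of the members of known direction between 5 and 10 kb and 94.1% of those over 100 kb. Among all gene ends over 5 kb from H3K4me3 there were 7527 starts and 13916 far ends of known direction. Their split by distance was not counted, so the trend is not shown to be particular to members. The median fold was 5.35 in the nearest of these classes and 5.55 in the farthest. Just inside the limit of 5 kb were Mapk3, which encodes the kinase ERK1 (5018 bp, fold 4.47), Plk3 (5031 bp, 5.19) and Ckb (5048 bp, 5.88), and just outside it were P2ry6 (4999 bp, 6.87), Emp3 (4994 bp, 4.15) and Arrdc1 (4973 bp, 4.90). At the limit of 1 kb from a gene end, Foxc2 (fold 12.2) and Mrc2 (4.16) were inside at 999 bp, and Tsku (3.81), Csad (5.62) and Zic2 (5.97) were outside at 1002, 1004 and 1004 bp.

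Seen from the genes, ETV5 was rare at ends without H3K4me3. Of 27050 gene ends over 5 kb from every H3K4me3 peak, 1271 (4.70%) had an ETV5 summit within 1 kb, and of 7527 such starts 580 (7.71%, 7.11 to 8.33) did. At far ends over 5 kb from H3K4me3 the share was 2.73% (2.47 to 3.02). Of the starts within 1 kb of H3K4me3, 90.6% (89.9 to 91.2) had ETV5. The members' nearest ends belonged to 1116 genes, 5.16% of the 21631 protein-coding genes on these chromosomes.

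The member starts were CpG-rich. In the 300-base promoter windows, member starts (564 windows of 528 genes) had a median of 6 CpG per 100 bases (quartiles 3.25 and 9). Starts over 5 kb from H3K4me3 and without ETV5 (8244 windows) had 1 (0.333 and 2.33), and H3K4me3 starts with ETV5 (10463 windows) had 7.67 (5.33 and 10.3). Among all starts over 5 kb from H3K4me3, ETV5 lay within 1 kb of 0.880% (0.595 to 1.25) of those with fewer than 1 CpG per 100 bases. The share was 9.62% (8.27 to 11.1) between 2 and 4 CpG, and 43.3% (39.2 to 47.4) at 8 or more. These shares count any ETV5 summit, whether or not its peak was a member. At 8 or more CpG there were 251 such starts with ETV5 and 202 member starts. At starts within 1 kb of H3K4me3 the share went from 40.5% (31.7 to 49.8) to 97.5% (97.1 to 97.9) over the same classes. In each of the 6 classes the share was lower without H3K4me3, and the intervals did not overlap. At unmarked starts the median fold ranged over the classes from 5.42 (1 to 2 CpG) to 6.44 (6 to 8 CpG). The G and C content moved with CpG density, with medians of 62.7% at member starts and 48.0% at unmarked starts without ETV5, and its part in the peak calls was not tested.

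**Figure D3:**
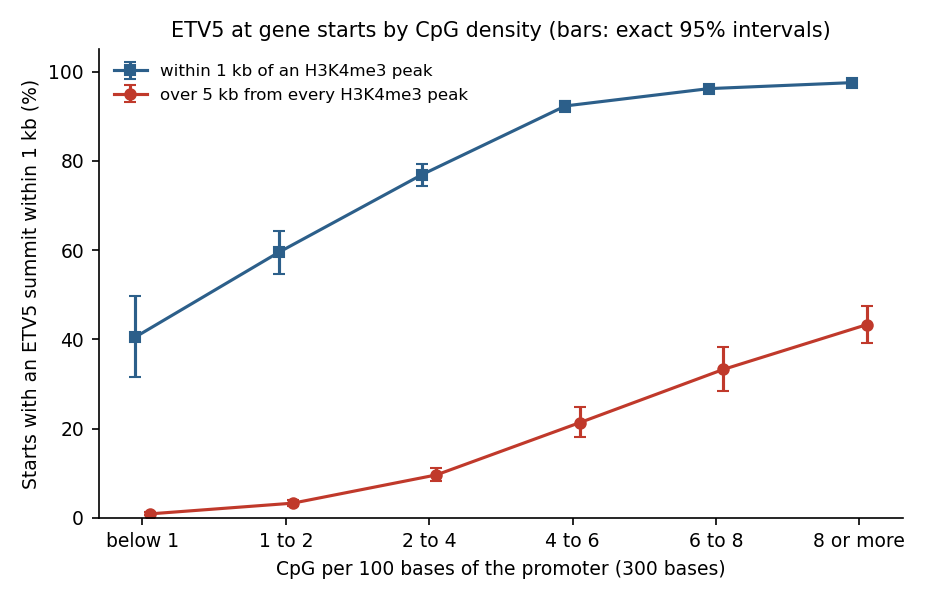
Share of gene starts with an ETV5 summit within 1 kb (y, percent) by CpG per 100 bases of the 300-base promoter (x), for starts within 1 kb of H3K4me3 (squares) and over 5 kb from it (circles), with exact 95% intervals. Both rise with CpG density, from 0.880 to 43.3% without H3K4me3 and from 40.5 to 97.5% with it. Any ETV5 summit is counted, whether or not its peak was a member.

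The longer ETS motifs were in a smaller share of member starts than of H3K4me3 starts with ETV5. Motifs were searched on both strands of each window. The groups are starts of protein-coding genes, while shares of all promoters are over 32619 windows of any gene type. CCGGAA, which contains the GGAA core, was in 9.22% (6.96 to 11.9) of member starts, 31.7% (30.8 to 32.6) of H3K4me3 starts with ETV5 and 5.33% (4.85 to 5.83) of unmarked starts without ETV5, against 15% of all promoters in the table. CCGGAAGT, which contains CCGGAA, was in 1.60% (0.732 to 3.01), 9.67% (9.11 to 10.3) and 0.728% (0.556 to 0.936), against 3.91% of all promoters. At H3K4me3 starts without ETV5 the shares were 11.5% (9.49 to 13.8) for CCGGAA and 0.663% (0.244 to 1.44) for CCGGAAGT, with intervals that overlapped those of member starts. The 9 member windows with it included those of Kifc1, Specc1 (fold 10.8) and the homeobox gene Meis1 (5.54). GGAA alone was in 92.02% of member starts and 96.0% of all promoters. Of the others, the GC box GGGCGG was in 60.3% of member starts, 71.3% of H3K4me3 starts with ETV5 and 16.6% of unmarked starts without ETV5 (35.9% of all promoters). The TATA box TATAAA was in 9.04, 5.40 and 22.3% (13.7% of all). Over the 21045 windows of protein-coding genes alone, CCGGAA was in 18.9% and CCGGAAGT in 5.20%. There the GC box was in 46.7% and the TATA box in 12.7%.

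Within CpG classes, CCGGAA was less frequent at member starts than at H3K4me3 starts with ETV5 in the 3 classes from 4 CpG per 100 bases upward, where the intervals did not overlap. At 8 or more CpG per 100 bases, it was in 9.41% (5.76 to 14.3) of member starts, 33.2% (31.9 to 34.5) of H3K4me3 starts with ETV5 and 11.9% (8.57 to 15.8) of unmarked starts without ETV5. Between 6 and 8 CpG the shares were 5.43% (1.79 to 12.2), 36.0% (34.1 to 38.0) and 13.7% (9.62 to 18.7). Between 4 and 6 CpG they were 9.57% (4.47 to 17.4), 31.6% (29.5 to 33.8) and 11.9% (9.09 to 15.1). In the 3 poorer classes the intervals of member starts and H3K4me3 starts with ETV5 overlapped, with 14.02% and 20.7% between 2 and 4 CpG and 7.55 and 7.57% between 1 and 2. Within each of the 6 classes the intervals of member starts and of unmarked starts without ETV5 overlapped. The window holds the member summit in only 162 of the 564 promoters, and in these CCGGAA was in 11.1%. No match says only that these letters are not in the window. The share of member starts was below that of all promoters, of any gene type, for the ETS variant AGGAAGT (5.85 against 9.38%) and for the GATA motif GATAAG (4.43 against 7.47%). Over the windows of protein-coding genes alone these 2 motifs were in 9.10 and 6.95%. At H3K4me3 starts with ETV5 they were in 7.63% (7.13 to 8.15) and 4.05% (3.68 to 4.45). These intervals overlapped those of member starts, so the low shares were not particular to members. The AP-1 motif TGANTCA was in 6.56% of member starts and 7.85% of all promoters. The CCAAT box was in 34.4 and 37.6%, and the cyclic AMP element TGACGTCA in 2.84 and 1.80%. A core repeated in the same direction after 5 bases was in 1.95 and 2.54%.

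**Figure D4:**
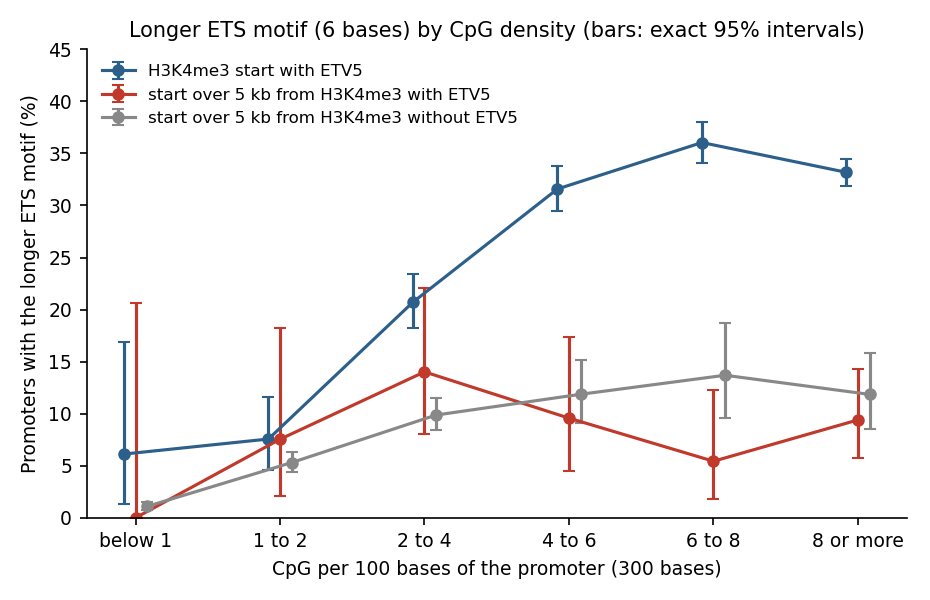
Share of promoters holding the ETS motif of 6 bases (y, percent) by CpG per 100 bases (x) in H3K4me3 starts with ETV5, member starts, and starts over 5 kb from H3K4me3 without ETV5, with exact 95% intervals. In the richest class the shares are 33.2, 9.41 and 11.9%.

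Of the member genes, 111 of 1116 belonged to 5 families of transcription factors with roles in development. The families were chosen by symbol after the members had been seen, so their counts describe the set and carry no test. Of 138 homeobox genes with both ends over 5 kb from H3K4me3, 69 had a member peak (50%, 41.4 to 58.6), against 8.66% of all 9035 such protein-coding genes. Forkhead genes had one at 12 of 19 (63.2%, 38.4 to 83.7), Sox genes at 9 of 13 (69.2%, 38.6 to 90.9), proneural and related bHLH genes at 12 of 29 (41.4%, 23.5 to 61.1) and T-box genes at 2 of 11 (18.2%, 2.28 to 51.8). In all, 111 of the 291 genes of these families had 168 member peaks, with a median fold of 5.55, close to the 5.46 of all members. Of all 1366 members 93 reached fold 10 (6.81%), and of the families' 168 peaks 14 did. The highest were at Foxe1, a factor of thyroid development (13.5), Foxd3 of the neural crest (13.2), Foxd1 of the kidney stroma (12.6), Nkx2-4 (12.5) and Emx1 of the cerebral cortex (12.2).

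The shares in 3 broad classes of CpG density are given as a description only, since the families were picked for having members. They count any ETV5 summit, whether or not its peak was a member. Among unmarked starts with 8 or more CpG per 100 bases, ETV5 lay within 1 kb of 32 of 47 in the families (68.1%, 52.9 to 80.9) and 219 of 533 elsewhere (41.1%, 36.9 to 45.4). Between 4 and 8 CpG it was 37 of 66 (56.1%, 43.3 to 68.3) and 211 of 895 (23.6%, 20.8 to 26.5). Below 4 it was 14 of 68 (20.6%, 11.7 to 32.1) and 259 of 7407 (3.50%, 3.09 to 3.94). The starts of a gene listed more than 1 time in the table share a neighbourhood and are not independent.

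Most genes had a single member. Of the 1116 genes, 902 had 1 member, 180 had 2 and 34 had 3 or more. Egr4, a zinc finger factor of the early growth response family, had 4, with folds of 9.85, 6.42, 5.62 and 5.55 along the gene, 2 nearest its start and 2 nearest its far end. Gas1, which encodes a surface co-receptor of Hedgehog signalling, had 4 from 5.55 to 7.64. Basp1 had 3 around its start, of fold 4.41, 17.9 and 5.70. Of the 34 genes, 15 belonged to the 5 families and 19 did not. These families held 111 of the 1116 member genes and 291 of all 21631 protein-coding genes. They were chosen after the members had been seen, so the count is a description only. The 15 were Foxd3, Gsx1 (highest fold 10.9), Lmx1b (9.09), Tlx3 (8.63), Nkx2-3 (8.51), Pou3f3 (8.34), Gbx1 (7.63), Nkx1-1 (7.36), Lhx1 (7.26), Six2 (6.89), Vax2 (6.85), Uncx (6.41), Hoxc6 (6.16), Dlx2 (6.12) and Sox2 (5.70). The 19 others were Egr4, Gas1, Basp1, Tmbim6, Igf2bp1 (10.5), Slc2a4 (9.94), Prlh (9.62), Ddn (9.33), Dlgap4 (8.01), Dmrta2 (7.57), Evpl (7.39), Slc13a3 (7.33), LOC108167320 (7.33), Grin2c (7.02), Gm13889 (6.99), Rap1gap (6.46), Pnmt (6.41), Dbn1 (6.01) and Stac2 (5.12). Over the whole set 733 members (53.7%) had another ETV5 summit within 5 kb. The same share over all ETV5 peaks was not counted, so this is not shown to be particular to members.

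The Hox genes, the homeobox genes of body segment identity, lie in clusters and are counted among the homeobox genes above. All 39 had both ends over 5 kb from H3K4me3, and 19 had a member peak (48.7%, 32.4 to 65.2), against 8.66% of all such protein-coding genes. There were 24 peaks in all, with a median fold of 5.47. The highest was at the start of Hoxd8 (fold 10.5, pileup 16), followed by Hoxa5 (8.19) and Hoxd13 (8.15). The other 21 peaks ranged down to 4.01 at Hoxd12.

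Among the solute carriers, the membrane transporters, 23 of 153 genes with both ends over 5 kb from H3K4me3 had a member (15.03%, 9.77 to 21.7). Of all 9035 such protein-coding genes 8.66% did, the share to set beside each count of unmarked genes below. The highest solute carrier member was at Slc2a4, the insulin-regulated glucose transporter (9.94). Receptor families of smell had few. A member lay at 2 of 1106 unmarked olfactory receptors (0.181%, 0.0219 to 0.652; Olfr70 5.34, Olfr159 4.77), 0 of 350 vomeronasal receptors (up to 1.05%), 2 of 99 keratins and keratin-associated genes and 4 of 86 cytochromes P450 (highest Cyp24a1, 7.36). Of 910 unmarked predicted genes 9 had one (0.989%), and of 61 unmarked Tmem genes 8 (13.1%, 5.84 to 24.2). Of 59 unmarked Zfp genes 0 had one, and of 9 unmarked ribosomal protein genes 1, Rpl37rt (4.01). Over all genes of the family, members lay at 12 of 1094 predicted (1.10%), 11 of 238 Tmem (4.62%, 2.33 to 8.12) and 4 of 400 Zfp genes (1.00%). Of all protein-coding genes 5.16% had one, which the Tmem interval holds.

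**Figure D5:**
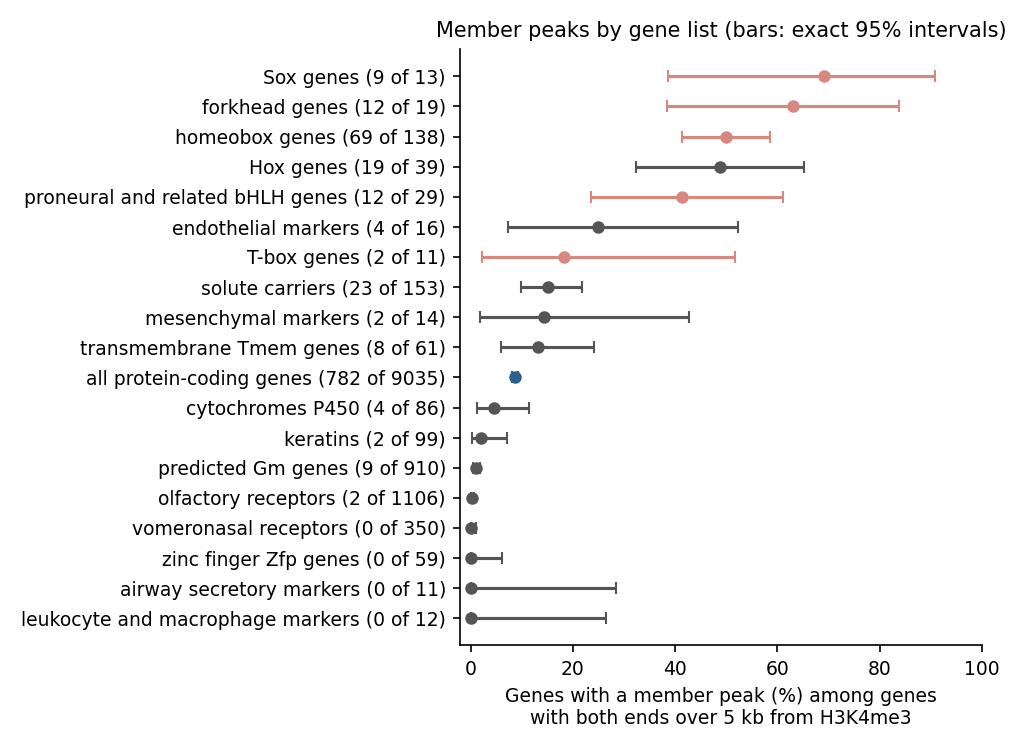
Share of genes with a member peak (x, percent) among genes with both ends over 5 kb from H3K4me3, by gene list (y, with counts; lists with at least 10 such genes), with exact 95% intervals; light red marks the families chosen after the members were seen. Homeobox, forkhead and Sox genes lie at 50 to 69.2%, and all protein-coding genes at 8.66%.

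Marker lists of lung cell types were counted against the 5.16% of all protein-coding genes that had a member. H3K4me3 lay within 1 kb of an end at 23 of 25 AT2 markers and at 11405 of all 21631 protein-coding genes. It did so at 14 of 20 AT1, 8 of 15 ciliated, 3 of 15 airway secretory and 3 of 12 basal markers, and at 4 of 20 leukocyte and macrophage, 2 of 20 endothelial and 1 of 15 mesenchymal markers. Of the 25 AT2 markers 1 had a member (0.101 to 20.4%), Cd74, the invariant chain of MHC class II (fold 5.03, pileup 9, 4.12 to 17.1), at 5158 bp from H3K4me3. None of 30 MAPK feedback genes (up to 11.6%) and none of 32 lipid synthesis genes (up to 10.9%) had one, and 26 and 25 of these carried H3K4me3. The intervals of all 3 lists hold the 5.16%. The rule leaves out ends near H3K4me3, however, and few genes of these lists were open to it. Both ends lay over 5 kb from H3K4me3 at 1 AT2 marker, 2 MAPK feedback genes and 3 lipid synthesis genes, and 0 of these had a member. The counts therefore cannot show whether these lists differ from other genes.

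Of 20 endothelial markers, 6 had a member (30.0%, 11.9 to 54.3). They were the VEGF receptor gene Flt1 with 2 peaks (fold 6.78 and 4.94), Ramp2 (6.23), Plvap (5.41), the VE-cadherin gene Cdh5 (4.94), the ETS factor gene Erg (3.96) and Sox18 (3.67). None of the 7 peaks reached fold 10, which only 6.81% of all members did. With both ends over 5 kb from H3K4me3 the count of genes was 4 of 16 (25%, 7.27 to 52.4), an interval that holds the 8.66% of all such genes. AT1 markers had Spock2 (9.01) and Rtkn2 (4.48) among 20, mesenchymal markers Wt1 (5.79) and Col1a1 (5.40) among 15, and basal markers Ngfr (7.10) and Sox2 (5.70) among 12. Ciliated markers had Dnah9 (6.82) among 15, leukocyte markers Coro1a (5.39) among 20, and airway secretory markers had 0 of 15. The 5.16% of all genes lay below the interval of the endothelial list and inside that of each of the other 6 lists of other cell types. The presence of other cells in the preparation was not tested.

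The members lay on all 20 chromosomes, at 3.13% of the ETV5 peaks of chromosome 16 (2.11 to 4.47) to 5.41% of those of chromosome 2 (4.54 to 6.39), and X had 18 of 522 (3.45%, 2.06 to 5.40). At 1 member the input was far above the rest. The peak in Lars2 (chromosome 9, 123461823 to 123462216) had a pileup of 93 over a background of 25.4 fragments and a fold of 3.57, whereas the next highest backgrounds were 3.12 at Brsk2 and Grasp, names chosen after the values were seen.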

How the data were processed

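ETV5 and H3K4me3 peaks of AT2 cells were each called from 1 library with MACS2 (2.1.0.20150420 in the submitters' processing notes). Per the file headers, this used a q-value threshold of 0.05 with at most 1 tag per position. The input named in the header of the ETV5 list has another name than the labelled input sample. The deposited fold enrichment ratio, −log10 p-value and −log10 q-value are the authors' own. The deposited pileup signal counts fragments at the summit and is unscaled. The background was computed as (pileup + 1)/fold − 1. For the aligner, nothing is stated in the sources used. The labels name mm9, but the positions were read as GRCm38, since 66.0% of H3K4me3 summits lay within 1 kb of an end of a GRCm38.p6 RefSeq gene.

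Gene ends came from the RefSeq gene table. Strand and promoters came from the RefSeq promoter table, which matched 844 of 1116 member genes and 17274 of 21631 protein-coding genes, and whose 1832 overlapping windows on opposite strands were all reverse complements. Distances to H3K4me3 run between peak edges. Members were counted with Python 3.11.15, pandas 2.3.3, numpy 2.4.6 and scipy 1.17.1, and bedtools 2.31.1 gave the same 1366. The rule was checked on simulated peaks. Intervals are exact 95% binomial or Poisson intervals. Figures used matplotlib 3.10.9. Named were the 15 members of highest fold, the 3 widest, the 5 highest at starts and far ends, those nearest each limit, members in marker lists (up to 6 per list) and in families (up to 3), genes with 3 or more members, and up to 4 with H3K4me3 at the other end. The prefix Hist matched no gene. The members, lists and families were chosen with earlier results of these data known. Other distance limits, stricter thresholds, all annotated genes and summit distances were tried as alternatives. A member nearest a limit is not reported here.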

Additional observations from a re-analysis of the deposited data

How the results depend on the processing

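No paired analysis was possible because each antibody had 1 library. The number of members depends on the limits. It was 843 with a gene end within 500 bp, 2089 within 2 kb, 778 when ETV5 peaks had to reach a −log10 q of 5, 209 at 10 or more, and 2080 with all annotated genes. The share at starts was 73.8% within 500 bp, 56.1% within 2 kb, 59.5% over 1 kb from H3K4me3, 70.8% over 10 kb, 72.0% at −log10 q of 5 or more and 73.0% at 10 or more, and stayed above that of far ends in each. The median fold was 6.46 at −log10 q of 5 or more and 9.62 at 10 or more, and the share of fold 10 or more 12.0 and 44.5%, as stricter thresholds drop weak peaks. Measuring from the summit, keeping only H3K4me3 peaks of −log10 q 10 or more, leaving out the member at Lars2 (added after the data were seen) or merging lines with the same ends left the shares and the median fold within the main value's interval and the number of members within 1.5 times. In the promoters of members of fold 10 or more CCGGAA was in 8.51%. The low ETV5 depth limits which weak peaks were called, and H3K4me3 below its caller's threshold was not analysed here.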
